A study of Homo sapiens with 68 samples.

Results

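The 6 arrays described here set cytarabine (ARA-C) directly against doxorubicin in A673 Ewing sarcoma cells, each compound given for 3 days at its EC50. They were chosen by their sample titles and make up 6 of the 68 arrays of the series. ARA-C was used at 0.17 uM (n = 3 arrays) and doxorubicin at 59.88 nM (n = 3), so the compounds were matched by EC50 and not by concentration. The DMSO vehicle arrays of day 3 (n = 5) served as the untreated reference for both. EC50 here is the dose that left 50% of the viability of control cells. All groups shared 1 cell line, A673, which carries the EWS/FLI translocation. The arrays of a group are labelled as biological replicates, and the study treated cells in triplicate. Whether each array came from its own culture is not stated there, and the p-values measure the spread between these samples.

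ARA-C is a cytosine nucleoside analogue that deoxycytidine kinase phosphorylates and DNA polymerases then build into DNA, where it stalls replication forks. Doxorubicin is an anthracycline that intercalates into DNA and traps topoisomerase II on cut strands. Both block the cell cycle, ARA-C mainly during DNA synthesis and doxorubicin often in G2. EWS/FLI is the fusion transcription factor that drives Ewing sarcoma, and the study searched for compounds that turn its expression program off.

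ARA-C replicate 3 stood apart from the other arrays. Signals are MAS5 intensities, and their 25th percentile was 58.9 on this array against 14.1 to 19.7 on the other 10 arrays of day 3. Its median signal was 213 against 111 to 130. Only 0.221% of its values lay under the floor of 10 that was applied before taking log2, compared with 18.3% to 21.5% elsewhere. This array moved the median ARA-C minus doxorubicin difference of all probe sets to 0.24 on the log2 scale, and without it that median was 0.00. Counts are therefore given with and without this array. Of 7 Ewing sarcoma marker genes measured, 6 reached a signal of 100 on some array of each group, and none of the 7 differed between the compounds. Of 13 blood cell markers, PTPRC was lower with ARA-C and CD3E and MS4A1 were higher, all at signals of at most 101 on the 6 arrays. CD3E and MS4A1 did not pass without ARA-C replicate 3. The summed signal of the 13 was 5641 to 6168 with ARA-C, 4798 to 5108 with doxorubicin and 3591 to 4574 with vehicle. Their part in the results was not tested. The ARA-C and doxorubicin arrays lay in plate rows C and D but in different plate columns, so compound and plate column cannot be told apart.

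**Figure D1:**
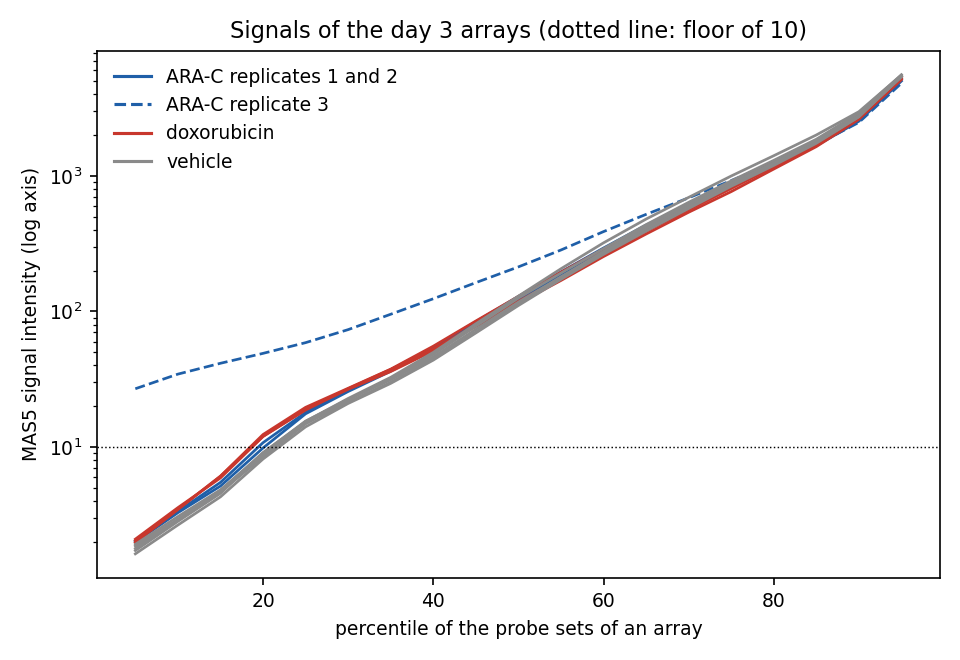
MAS5 signal intensity (log axis) at percentiles 5 to 95 of the 22215 probe sets, 1 line for each array of day 3. The dashed line, ARA-C replicate 3, lies above all others at low signals, with a 25th percentile of 58.9 against 14.1 to 19.7, and meets them at high signals.

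Of 22215 probe sets, 1562 were higher with ARA-C than with doxorubicin (7.03% of those tested) and 516 were lower (2.32%) at an adjusted p under 0.05 (limma, Benjamini-Hochberg). Without ARA-C replicate 3 the counts were 757 (3.41%) and 364 (1.64%). The balance of the calls depended on the scaling. Higher calls made up 75.2% of all calls as deposited, 67.5% without ARA-C replicate 3, 51.3% after quantile normalization and 24.3% after a shift of all arrays to a common median. In total, 683 higher and 282 lower probe sets passed as deposited, without ARA-C replicate 3 and after quantile normalization alike.

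Most of the 683 higher probe sets lay low with doxorubicin. Against the vehicle arrays, 502 of them were below vehicle with doxorubicin and 5 above, where 11.1% and 9.03% of all probe sets were. With ARA-C 197 of the 683 were above vehicle and 53 below, where 14.5% and 7.92% of all probe sets were. The 4975 probe sets that differed from vehicle with ARA-C numbered 2257 without ARA-C replicate 3. With vehicle arrays of plate rows A-F they numbered 1633, and the 4473 with doxorubicin numbered 3023. That setting keeps 2 of the 5 vehicle arrays, since 3 lay in row G. Fewer arrays and plate row cannot be told apart in it. Of the 282 lower probe sets, 195 were above vehicle with doxorubicin and 2 below, whereas with ARA-C 65 were above and 70 below. Both vehicle comparisons share the 5 vehicle arrays, and the arrays of each compound also enter the direct comparison, so these counts are a description.

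Named genes were those with the largest differences among probe sets that passed, whose 3 and 3 arrays did not overlap and whose higher group was above a signal of 258. Of all probe sets, 28.2% had 3 arrays of each compound that did not overlap. The gene most raised with ARA-C relative to doxorubicin was CER1, a secreted antagonist of nodal and BMP signaling. CER1 gave signals of 327, 312 and 441 with ARA-C, 3.16, 2.15 and 8.90 with doxorubicin, and 297 to 463 on the vehicle arrays. All 3 doxorubicin arrays were under the floor, so the difference of 5.15 ± 0.51 (log2, SE; adjusted p = 7.3e-11) depends on it. CER1 with ARA-C overlapped vehicle. WNT5A, a non-canonical Wnt ligand, was likewise low with doxorubicin, with 402, 271 and 319 with ARA-C, 80.8, 42.0 and 61.7 with doxorubicin, and 215 to 271 with vehicle (difference 2.46 ± 0.28, adjusted p = 7.5e-09). CTNND2, which encodes delta-catenin, a neuronal junction protein, gave 438, 407 and 372 with ARA-C and 69.7, 101 and 66.1 with doxorubicin (2.38 ± 0.22, adjusted p = 1.6e-11). Its vehicle arrays read 406 to 461, and the level fell by 2.44 on the log2 scale with doxorubicin (adjusted p = 2.2e-14) while ARA-C minus vehicle was -0.06 (adjusted p = 0.85). PCYT2, an enzyme of phosphatidylethanolamine synthesis, and PLA2G3, a secreted phospholipase, were also below vehicle with doxorubicin, by differences of -2.14 and -3.65. ARA-C minus vehicle was 0.21 (adjusted p = 0.58) for PCYT2 and -0.95 (adjusted p = 0.12) for PLA2G3. The difference between the compounds was 2.35 for PCYT2 and 2.70 for PLA2G3.

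In other genes ARA-C exceeded vehicle. NUPR1, a stress-induced chromatin protein, read 249, 309 and 417 with ARA-C, 19.3, 40.1 and 37.9 with doxorubicin and 16.2 to 36.2 with vehicle (3.36 ± 0.65, adjusted p = 0.00027). SCRG1 read 317, 234 and 308 with ARA-C, 55.1, 74.0 and 17.9 with doxorubicin and at least 19.0 with vehicle (2.76 ± 0.62, adjusted p = 0.0016). HMOX1, the heme oxygenase induced by oxidative stress, read 346, 347 and 481 with ARA-C, 47.9, 121 and 62.4 with doxorubicin and 34.2 to 90.2 with vehicle (2.44 ± 0.42, adjusted p = 3.8e-05). For these 3 genes the ARA-C arrays stood apart, and doxorubicin minus vehicle was 0.18, 0.09 and 0.44, none past the threshold. CSTA, a cysteine protease inhibitor, was above vehicle with ARA-C by 1.64 (adjusted p = 0.0063), with a difference between the compounds of 2.39. PIDD1, a p53-induced scaffold of caspase-2 activation, departed from vehicle in both directions, with 317, 413 and 338 with ARA-C, 74.8, 53.2 and 72.2 with doxorubicin and 117 to 154 with vehicle (2.42 ± 0.35, adjusted p = 1.5e-06). TGFB1I1, a focal adhesion protein, did the same, at 1.19 above vehicle with ARA-C and -0.93 with doxorubicin. The protocadherin PCDH7 differed by 2.34 through 1 probe set, by 0.91 and 0.92 through probe sets that also passed, and by -0.09 (adjusted p = 0.89) through another.

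**Figure D2:**
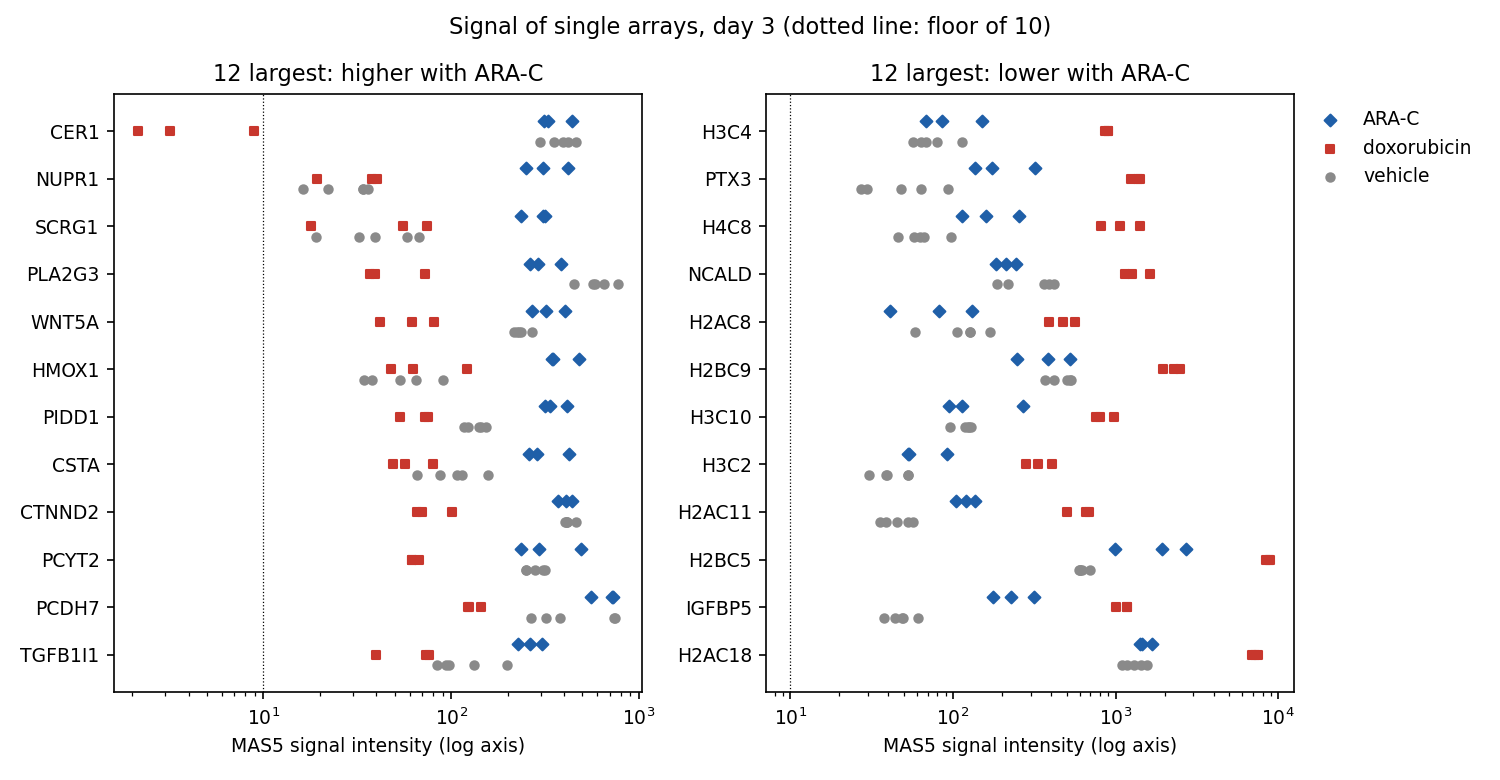
MAS5 signal intensity (log axis) of the 12 genes highest and the 12 genes lowest with ARA-C relative to doxorubicin, 1 point for each array (3 ARA-C, 3 doxorubicin, 5 vehicle). The ARA-C and doxorubicin points of each gene do not overlap, as the choice of genes requires; CER1 with doxorubicin lies under the floor of 10, and the histone genes on the right stand at the highest signals with doxorubicin.

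Histone genes led the genes that were lower with ARA-C, and 9 of the 12 most lowered genes belonged to them. Canonical histone genes are transcribed in S phase to package new DNA. Their transcripts normally end in a stem-loop instead of a poly(A) tail. The study names an Affymetrix automated protocol for target preparation but does not state the primer used for the arrays. How far these signals read histone transcripts with or without a tail was not tested. Of 51 histone genes measured, 19 were lower with ARA-C than with doxorubicin and 3 were higher, and the median difference was -0.56 against 0.24 over all probe sets. Without ARA-C replicate 3 the counts were 19 and 2. With all arrays 2.32% of all probe sets were lower and 7.03% higher. The lower genes included 10 of 15 H2B, 4 of 9 H2A, 3 of 8 H3, 1 of 10 H4 and 1 of 5 H1 genes. All 19 lie in the histone clusters of chromosome 6 (17 genes) and chromosome 1 (2 genes). Histone copies are nearly identical, 11 of the 19 were read by probe sets marked as shared between transcripts, and the assignment of a signal to 1 copy is uncertain.

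The promoters of histone genes hold sequence motifs, some of which also occur in many other promoters. The 150 bases before the start of 3 of these genes are given as RefSeq has them on GRCh38.p14, as examples from the H2A, H2B and H3 classes. Capitals mark CCAAT on either strand and, in addition, the octamer ATTTGCAT in H2BC9 and TATAAA in H3C10 and H2AC18. H2BC9 lies at chr6:26251464-26251613 (plus strand), H3C10 at chr6:27809901-27810050 (plus strand) and H2AC18 at chr1:149842751-149842900 (minus strand).
H2BC9: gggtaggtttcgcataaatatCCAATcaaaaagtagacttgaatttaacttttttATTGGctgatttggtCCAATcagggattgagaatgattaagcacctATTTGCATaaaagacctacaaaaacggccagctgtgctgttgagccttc
H3C10: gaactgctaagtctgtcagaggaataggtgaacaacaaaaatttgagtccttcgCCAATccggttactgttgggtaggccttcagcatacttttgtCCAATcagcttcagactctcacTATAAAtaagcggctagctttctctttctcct
H2AC18: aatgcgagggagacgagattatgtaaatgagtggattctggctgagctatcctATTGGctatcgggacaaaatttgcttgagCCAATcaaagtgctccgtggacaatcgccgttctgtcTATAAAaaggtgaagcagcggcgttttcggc
Over 250 bases before the start and on both strands, CCAAT was found in 18 of the 19 lower histone genes (94.7%), in 24 of 29 other histone genes with a promoter (82.8%) and in 33.0% of all 27305 promoters. ATTTGCAT was found in 13 of the 19 (68.4%), in 8 of the 29 (27.6%) and in 1.66% of all promoters. The lower genes included 10 of 15 H2B but 1 of 10 H4 genes, so the 19 and the 29 differ in histone class. Motif and class were not separated here. TATAAA was found in 13 of the 19, in 19 of the 29 and in 11.1% of all promoters. These are matches of letters and not measured binding sites.

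H3C4, which encodes an H3 core histone, gave signals of 86.0, 68.4 and 151 with ARA-C, 863, 900 and 899 with doxorubicin and 57.0 to 114 with vehicle. The difference was -3.20 ± 0.38 (adjusted p = 1.5e-08). H2BC9 gave 523, 385 and 247 with ARA-C, 2293, 2484 and 1950 with doxorubicin and 368 to 530 with vehicle (-2.60 ± 0.29, adjusted p = 1.7e-09). H3C10 gave 95.0, 114 and 271 with ARA-C, 976, 755 and 799 with doxorubicin and 95.2 to 129 with vehicle (-2.55 ± 0.38, adjusted p = 2.3e-06). In all 3 genes the doxorubicin arrays lay above every vehicle and ARA-C array, while ARA-C replicate 3 lay above the vehicle range for H3C4 and H3C10 and below it for H2BC9. H2AC18 gave 1412, 1456 and 1666 with ARA-C, 7203, 7513 and 6861 with doxorubicin and 1095 to 1567 with vehicle (-2.25 ± 0.21, adjusted p = 2.1e-11). A weaker rise with ARA-C was seen for others. H2BC5 read 4091, 4127 and 3211 with ARA-C, 13123, 11796 and 12975 with doxorubicin and 1318 to 1426 with vehicle through the probe set of highest signal (-1.74 ± 0.16, adjusted p = 1e-11), and a second probe set differed by -2.32. H4C8, H2AC11, H2AC8 and H3C2 differed by -2.67, -2.35, -2.63 and -2.41. A second H4C8 probe set (0.33, adjusted p = 0.75) and 1 of 3 for H2AC18 (-0.35, adjusted p = 0.76) did not pass. Doxorubicin was above vehicle in 18 of the 19 lower genes, and ARA-C in 7 of the 19. The exception was H1-2, a linker histone, which was below vehicle with both, by -2.11 with ARA-C and -0.83 with doxorubicin. The 19 were picked with the same compound arrays, which favours such counts. Of all 51, 23 were above vehicle and 7 below with doxorubicin, and 8 above and 4 below with ARA-C. Over all probe sets 9.03% were above and 11.1% below with doxorubicin, and 14.5% and 7.92% with ARA-C.

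The 3 histone genes that were higher with ARA-C were H2AX, the variant phosphorylated at DNA breaks (difference 0.50), H4C3 (1.29) and the replication-independent linker H1-10 (1.33). H4C3 did not pass without ARA-C replicate 3 (adjusted p = 0.15). Of the 29 histone genes that did not pass, 24 had a mean signal under 130 in both groups, and the dimness of these probe sets limits what can be seen. In total RNA of a culture, fewer cells that express a gene and less of its RNA in each cell cannot be told apart. The log2 ratio of 3' to 5' GAPDH control probe sets, a measure of RNA integrity, was 0.40 ± 0.04 (SD, n = 3) with ARA-C, 0.18 ± 0.13 (n = 3) with doxorubicin and -0.05 ± 0.06 (n = 5) with vehicle (two-sided exact permutation p = 0.1 between the compounds, the smallest that 3 against 3 arrays allow). For ACTB it was 1.31 ± 0.18, 1.13 ± 0.46 and 0.53 ± 0.21 (exact p = 0.6). The part of RNA integrity in these results was not tested.

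Mitosis genes were lower with ARA-C as well. Of 30 measured, 16 were lower and none was higher, all 30 differences were below 0, and the median was -0.44 against 0.24 over all probe sets. Without ARA-C replicate 3, 14 were lower and again none was higher. With that array 2.32% of all probe sets were lower and 7.03% higher. CDC20, the activator of the anaphase-promoting complex, gave 4072, 3793 and 3915 with ARA-C, 8446, 8465 and 9012 with doxorubicin and 6056 to 6379 with vehicle (-1.14 ± 0.10, adjusted p = 2.1e-12). The vehicle arrays of CDC20 lay between those of the compounds, with ARA-C below by -0.67 and doxorubicin above by 0.46. AURKA, the centrosomal Aurora kinase, gave 5079, 5667 and 4866 with ARA-C, 11303, 11628 and 10878 with doxorubicin and 5436 to 7518 with vehicle (-1.12 ± 0.15, adjusted p = 2e-07). PLK1, a kinase of mitotic entry and spindle assembly, gave 1680, 1605 and 1517 with ARA-C, 3352, 3618 and 2995 with doxorubicin and 2463 to 3673 with vehicle (-1.05 ± 0.20, adjusted p = 0.00019). Here doxorubicin overlapped vehicle and ARA-C was below. The kinetochore motor CENPE (-1.18), the kinesin KIF20A (-0.98), the mitotic cyclin CCNB1 (-0.72) and the ubiquitin-conjugating enzyme UBE2C (-0.72) were also lower. Of the 16 genes, doxorubicin was above vehicle in 8 and below in none, and ARA-C was below vehicle in 8. The 16 were picked with the same compound arrays. Of all 30, 10 were above vehicle and none below with doxorubicin, and 1 was above and 11 below with ARA-C. Over all probe sets 9.03% were above and 11.1% below with doxorubicin, and 14.5% and 7.92% with ARA-C.

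The 150 bases before the start of CDC20 (chr1:43358831-43358980, plus strand) and PLK1 (chr16:23678739-23678888, plus strand) are shown because many mitosis promoters carry CCAAT together with TTTGAA, the core of the cell cycle homology region. Capitals mark both motifs.
CDC20: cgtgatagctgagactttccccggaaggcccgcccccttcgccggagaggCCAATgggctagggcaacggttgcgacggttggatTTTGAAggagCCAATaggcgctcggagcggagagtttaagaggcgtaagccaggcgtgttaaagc
PLK1: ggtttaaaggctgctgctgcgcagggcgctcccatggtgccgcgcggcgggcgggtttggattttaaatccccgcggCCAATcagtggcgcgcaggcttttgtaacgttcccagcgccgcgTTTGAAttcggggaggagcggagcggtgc
Of the 16 lower mitosis genes, 12 had a RefSeq promoter. CCAAT was found within 250 bases in 11 of the 12 (91.7%), against 33.0% of all promoters. TTTGAA was found in 7 (58.3%), against 13.6% of all promoters. No share is given for the mitosis genes that did not pass, so motif and membership of the list were not separated. Of the 19 lower histone genes 5 held TTTGAA (26.3%), and of the 12 mitosis genes none held ATTTGCAT.

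DNA replication genes leaned the other way. Of 36 measured, 8 were higher with ARA-C and none was lower, where 7.03% and 2.32% of all probe sets were. The list median was 0.30 against 0.24 over all probe sets. Without ARA-C replicate 3, 7 were higher, and the list's median of 0.31 then stood against 0.00. The count depended on the scaling, with 15 of 36 higher after quantile normalization and 2 after a shift to a common median. PRIM1, the catalytic subunit of primase, gave 2318, 2293 and 2078 with ARA-C, 1195, 1185 and 1123 with doxorubicin and 2479 to 2913 with vehicle (0.93 ± 0.14, adjusted p = 1.8e-06). CDT1, a licensing factor of replication origins, gave 637, 575 and 540 with ARA-C, 240, 295 and 219 with doxorubicin and 280 to 605 with vehicle (1.22 ± 0.30, adjusted p = 0.0042). GMNN, the inhibitor of CDT1, was higher by 0.84 and the polymerase clamp PCNA by 0.53. All 8 genes were below vehicle with doxorubicin, and 1 of them, the polymerase alpha subunit POLA1, was also below vehicle with ARA-C. The 8 were picked with the same compound arrays. Of all 36, 17 were below vehicle with doxorubicin and 5 with ARA-C, and none was above with either. Over all probe sets 11.1% were below with doxorubicin and 7.92% with ARA-C. The helicase subunits MCM2 to MCM7 did not pass, with differences from -0.26 to 0.18. Among the 7 of the 8 higher genes with a promoter, 4 held CCAAT and none held TTTGAA, where 33.0% and 13.6% of all promoters did.

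Cyclins and E2F factors of the G1/S transition split between the compounds, with 6 of 25 higher with ARA-C and 2 lower. Over all probe sets 7.03% were higher and 2.32% lower, and the list median was 0.09 against 0.24. CCNE2, cyclin E2, gave 267, 221 and 163 with ARA-C, 33.2, 53.6 and 18.2 with doxorubicin and 87.5 to 150 with vehicle (2.74 ± 0.39, adjusted p = 8.5e-07). E2F8, a repressive E2F, gave 499, 346 and 398 with ARA-C, 130, 135 and 96.2 with doxorubicin and 361 to 687 with vehicle (1.78 ± 0.26, adjusted p = 1.2e-06). CCNE1 (0.96), E2F1 (0.78), E2F2 (2.07) and CCND3 (0.66) were higher as well, E2F2 only with ARA-C replicate 3 included (adjusted p = 0.055 without it). Cyclin D2, CCND2, was lower (adjusted p = 0.0059) at signals of 6.10 to 35.4 with ARA-C and 81.4 to 85.4 with doxorubicin, and MYCN, a MYC family transcription factor, was lower by -1.04. Neither passed without ARA-C replicate 2, and without doxorubicin replicate 1 or 2 only 1 of the 2 did.

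**Figure D3:**
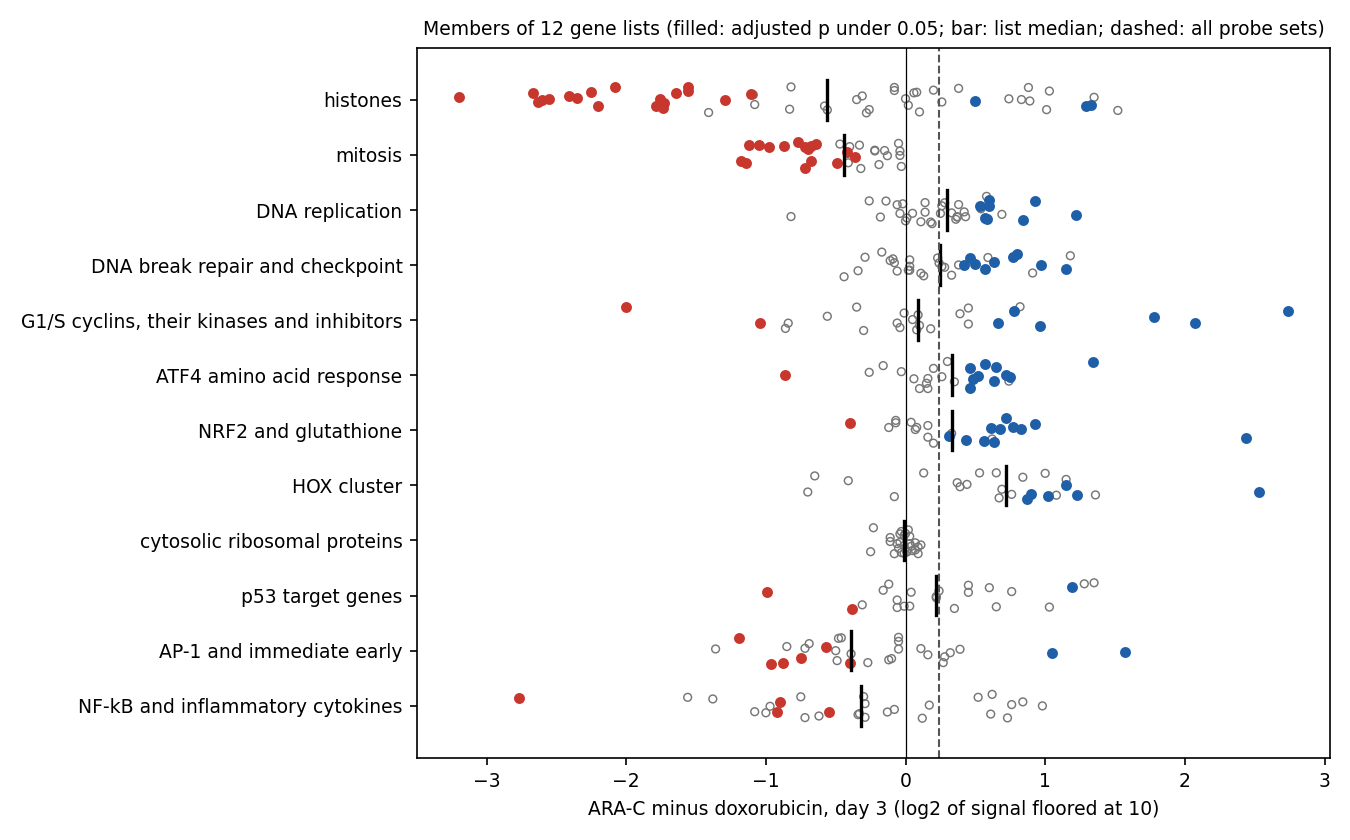
ARA-C minus doxorubicin on day 3 (log2 of signals floored at 10) for each measured member of 12 gene lists, filled where the adjusted p was under 0.05, red below 0 and blue above. The vertical bars are list medians (histones -0.56, mitosis -0.44, DNA replication 0.30) and the dashed line is the median of all probe sets, 0.24.

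Genes of DNA break repair and the checkpoint were higher with ARA-C in 9 of 32 cases and lower in none (7 without ARA-C replicate 3). The list median was 0.25 against 0.24 over all probe sets, of which 7.03% were higher and 2.32% lower. Without ARA-C replicate 3 these medians were 0.24 and 0.00. EXO1, an exonuclease of end resection, gave 2279, 2353 and 2260 with ARA-C, 1220, 1455 and 1284 with doxorubicin and 1652 to 1943 with vehicle (0.80 ± 0.13, adjusted p = 2.1e-05). The checkpoint clamp subunit RAD9A was higher by 0.97. Of 23 p53 target genes 1 was higher and 2 were lower, where 7.03% and 2.32% of all probe sets were: the damage recognition factor DDB2 by 1.19, the kinase PLK2 by -0.99 and TRIAP1 by -0.38. DDB2 (adjusted p = 0.11) and PLK2 (0.054) did not pass without ARA-C replicate 3. CDKN1A, the inhibitor p21, was above vehicle with both compounds, by 1.68 with ARA-C and 1.74 with doxorubicin. CDKN1A did not pass between them, with a difference of -0.06 and a 95% interval from -0.46 to 0.34.

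Of the 16 genes of drug action and fusion status that were read whatever their result, 3 passed. TOP2A, the topoisomerase II form of dividing cells and a target of doxorubicin, gave 2189, 2219 and 2216 with ARA-C, 4061, 3808 and 4066 with doxorubicin and 2047 to 2892 with vehicle (-0.85 ± 0.15, adjusted p = 6.4e-05). RRM1, the large subunit of ribonucleotide reductase, gave 6890, 7466 and 7465 with ARA-C and 4919, 5110 and 5000 with doxorubicin (0.54 ± 0.10, adjusted p = 0.00024). SAMHD1, which hydrolyses deoxynucleotide triphosphates and that of ARA-C, gave 185, 203 and 154 with ARA-C, 122, 70.0 and 63.4 with doxorubicin and 185 to 250 with vehicle (1.14 ± 0.25, adjusted p = 0.0014). SAMHD1 did not pass after quantile normalization (adjusted p = 0.12). Doxorubicin cells had more TOP2A and less RRM1 and SAMHD1 RNA than vehicle, and the ARA-C arrays overlapped vehicle in all 3 genes. DCK, the kinase that activates ARA-C, differed by 0.22 (95% interval -0.16 to 0.60). The ARA-C transporter SLC29A1 (0.75), cytidine deaminase CDA (0.97), RRM2 (0.26), TYMS (0.28), TOP1 (-0.34), TOP2B (0.08), the efflux pumps ABCB1 (-0.45) and ABCC1 (-0.18), and MDM2 (0.45) did not pass. Over the whole list of cytosine nucleoside and deoxynucleotide metabolism 5 of 22 were higher and none was lower. The list median was 0.31 against 0.24 over all probe sets, of which 7.03% were higher and 2.32% lower. The 5 became 3 without doxorubicin replicate 1, 2 without doxorubicin replicate 3 and 1 after a shift to a common median. Among 7 topoisomerases TOP2A was lower and TOP3A higher (0.62), the latter not after quantile normalization, nor without ARA-C replicate 3 or any 1 of the doxorubicin arrays. The median of 13 genes of doxorubicin transport and anthracycline reduction was -0.08, and 5 of them were higher and none lower. Carbonyl-reducing aldo-keto reductases were among them, with AKR1C1 at 1363, 1609 and 1340 with ARA-C and 595, 692 and 725 with doxorubicin (1.10), AKR1C2 higher by 1.40 and AKR1C3 by 0.68. The AKR1C genes are near-identical, and their probe sets may share signal. The transporter ABCC3 (2.01) did not pass without ARA-C replicate 3.

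FLI1, whose 3' part belongs to the fusion transcript, gave 2680, 2032 and 2649 with ARA-C and 2698, 2606 and 2384 with doxorubicin, a difference of -0.07 (95% interval -0.45 to 0.30). EWSR1 differed by 0.02 (-0.21 to 0.25). On the separate arrays of day 5 FLI1 was lower with ARA-C by -0.96 (adjusted p = 0.00011), with means of 1036 and 1908, and EWSR1 differed by -0.05. The EWS/FLI off score is the mean log2 signal of 66 probe sets up with EWS/FLI knockdown minus that of 77 probe sets down with it, both taken by the study from a knockdown dataset that is not among these arrays. The score was -1.51, -1.49 and -1.36 with ARA-C, -1.11, -1.17 and -1.08 with doxorubicin and -1.97 to -1.83 with vehicle. Its means were -1.45 ± 0.08 (SD, n = 3), -1.12 ± 0.04 (n = 3) and -1.90 ± 0.07 (n = 5), and ARA-C was thus lower than doxorubicin by a difference of -0.33 (two-sided exact permutation p = 0.1, the smallest possible here). Relative to the mean of each array, the 66 differed by -0.28 and the 77 by 0.06. Replicate 3 weighs on this split. The 66 stood at 1.10, 1.13 and 0.56 with ARA-C and 1.19 to 1.22 with doxorubicin, and the 77 at 2.62, 2.61 and 1.92 against 2.29 to 2.36. All 6 treated arrays scored above all 5 vehicle arrays.

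The 66 and the 77 probe sets did not move as blocks between the compounds. Of the 66, 5 were higher with ARA-C and 6 were lower, where 7.03% and 2.32% of all probe sets were. Without ARA-C replicate 3 these counts were 1 and 4, where 3.41% and 1.64% of all probe sets were. PTX3, a secreted pentraxin, gave 174, 137 and 318 with ARA-C, 1404, 1375 and 1238 with doxorubicin and 27.0 to 92.7 with vehicle (-2.77 ± 0.39, adjusted p = 8.8e-07). NPAS2, a clock transcription factor, was lower by -2.22 (adjusted p = 0.0015). THBS2 (-1.38, adjusted p = 0.10), BLVRA (1.23, 0.18) and HSPB3 (1.11, 0.31), the next largest of the 66, did not pass. Of the 77, 14 were higher with ARA-C and 1 was lower (13 and 1 without that array), where 7.03% and 2.32% of all probe sets were. HOOK1, a microtubule linker, gave 2551, 2191 and 2117 with ARA-C, 864, 842 and 770 with doxorubicin and 2116 to 3530 with vehicle (1.47 ± 0.16, adjusted p = 9.1e-10). NOL4 gave 353, 291 and 540 with ARA-C, 99.2, 111 and 106 with doxorubicin and 331 to 416 with vehicle (1.86 ± 0.25, adjusted p = 3.6e-07). In HOOK1 and NOL4 the ARA-C arrays overlapped vehicle and the doxorubicin arrays lay below. SLC68A1 was higher by 2.34 and the mast cell tryptase gene TPSAB1 by 1.85, and CCK (1.46, adjusted p = 0.062) did not pass. With doxorubicin SLC68A1 read 31.5, 6.36 and 13 and CCK read 7.53, 4.38 and 4.57, so values under the floor enter both differences. Against vehicle, 36 of the 66 were above with ARA-C and 29 with doxorubicin, and 4 of the 77 were below with ARA-C and 15 with doxorubicin, while 27 and 20 of the 77 were above. Over all probe sets 14.5% were above and 7.92% below with ARA-C, and 9.03% and 11.1% with doxorubicin. The ARA-C counts include ARA-C replicate 3. The ARA-C calls against vehicle over all probe sets fell from 4975 to 2257 without that array. With the 2 vehicle arrays of plate rows A-F they fell to 1633, and the doxorubicin calls fell from 4473 to 3023. Of 13 genes of the study's screening signature, which is not all of its genes, 1 differed, PDGFA (-1.46). Of 20 EWS/FLI-activated genes known from other work 1 was lower (AURKA), and of 11 repressed genes 2 were, the growth factor binding protein IGFBP3 (-2.07) and PHLDA1 (-0.96).

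Amino acid response genes of the ATF4 program were higher with ARA-C in 10 of 24 cases and lower in 1 (9 and 1 without ARA-C replicate 3). Their median was 0.33 against 0.24 over all probe sets, of which 7.03% were higher and 2.32% lower. The medians of the NRF2, HOX and BCL2 family lists below were 0.33, 0.72 and 0.42. PHGDH, the first enzyme of serine synthesis, gave 5993, 5777 and 5388 with ARA-C, 3676, 3318 and 3213 with doxorubicin and 4405 to 4927 with vehicle (0.75 ± 0.16, adjusted p = 0.00072). CHAC1, which degrades glutathione, was higher by 1.34. The exception was DDIT3, the stress transcription factor CHOP, at 1549, 1527 and 1347 with ARA-C, 2749, 2826 and 2429 with doxorubicin and 756 to 1108 with vehicle (-0.86 ± 0.19, adjusted p = 0.0014). Of 23 NRF2 and glutathione genes 11 were higher and 1 was lower (8 and none without ARA-C replicate 3). Besides HMOX1, glutathione reductase GSR was higher by 0.93 and the transferase GSTM2 by 0.83, the latter with an adjusted p of 0.065 without that array. HOX genes, which set position along the body axis, were higher with ARA-C in 6 of 24 cases and lower in none (5 without ARA-C replicate 3). HOXB7 gave 695, 752 and 683 with ARA-C, 324, 298 and 284 with doxorubicin and 541 to 725 with vehicle (1.23 ± 0.20, adjusted p = 1.3e-05), and HOXB6 and HOXB2 were higher by 2.53 and 1.15. HOXB2 did not pass without that array (adjusted p = 0.062). Of 17 BCL2 family genes 4 were higher, among them BCL2 itself, at 1519, 1310 and 1465 with ARA-C, 708, 806 and 675 with doxorubicin and 1385 to 1739 with vehicle (0.97 ± 0.16, adjusted p = 1.2e-05), the pro-apoptotic BAD (adjusted p = 1.2e-05) and the anti-apoptotic BCL2L1 (1.08). BCL2L1 did not pass without ARA-C replicate 3.

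The next 3 lists, too, are to be read against 7.03% higher and 2.32% lower of all probe sets, with a median of 0.24. List medians were -0.32 for NF-kB and cytokine genes and -0.39 for AP-1 and immediate early genes. For interferon-stimulated genes the median was 0.58, and 0.08 without ARA-C replicate 3. Of 28 NF-kB and cytokine genes 4 were lower and none was higher, with and without ARA-C replicate 3. Besides PTX3 they included IL1B, at 345, 301 and 672 with ARA-C, 781, 845 and 692 with doxorubicin and 111 to 138 with vehicle (-0.90 ± 0.24, adjusted p = 0.0097), and PTGS2, the inducible cyclooxygenase (-0.92). IL1B and PTGS2 rose above vehicle with both compounds. Of 29 AP-1 and immediate early genes 6 were lower and 2 were higher (3 and 1 without ARA-C replicate 3), with the orphan receptors NR4A2 lower by -1.19 and NR4A1 higher by 1.05 (adjusted p = 0.13 without that array) and EGR4 higher by 1.57. Of 39 interferon-stimulated genes 6 were higher, and 2 without ARA-C replicate 3, the ubiquitin-like ISG15 (1.02) and the nuclear body protein SP110 (1.03). HERC6 (1.40) and IFI35 (1.73) were lost without it. IGFBP5, a secreted IGF-binding protein, gave 177, 226 and 314 with ARA-C, 1168, 1009 and 1167 with doxorubicin and 37.7 to 60.5 with vehicle (-2.26 ± 0.41, adjusted p = 9e-05), through 1 of 5 probe sets of which the others did not pass. NCALD, a neuronal calcium sensor, gave 183, 211 and 243 with ARA-C and 1147, 1628 and 1256 with doxorubicin (-2.66 ± 0.34), and its other probe set did not pass.

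The remaining lists are given by their counts, to be read against the 7.03% higher and 2.32% lower of all probe sets. Of 27 cytosolic ribosomal protein genes none passed, and their median was -0.01. Of 25 ribosome biogenesis genes 1 was higher (UBTF, 1.01) and 2 were lower (NIP7, -0.61; GNL2, -0.46). In 29 extracellular matrix and contractile genes the smooth muscle actin ACTA2 was higher (0.82), and 3 were lower, with COL5A1 (-0.74) and COL1A2 (-0.73) among them. Both genes called among 17 matrix proteases and inhibitors, MMP14 (0.90) and TIMP2 (0.61), did not pass without ARA-C replicate 3. Of 23 neuronal genes 3 were higher and 2 were lower. The glycolytic enzyme of neurons ENO2 gave 920, 1068 and 1146 with ARA-C, 299, 335 and 325 with doxorubicin and 722 to 1239 with vehicle (1.70 ± 0.20, adjusted p = 1.8e-08). CHGA (1.96), under the floor on the doxorubicin arrays, passed only with ARA-C replicate 3. STMN2, a microtubule regulator of growing neurites, was lower by -2.06. Of 21 lysosome genes 3 were higher, led by the glycoprotein GPNMB (1.42) with CTSA (0.57), and 2 were lower, with CTSL (-0.66). Of 25 glycolysis and hypoxia genes 6 were higher, with ENO2, ALDOC (1.73) and the glucose transporter SLC2A3 (1.17), and 1 was lower. Of 17 ER chaperone genes 2 were higher, DNAJC3 (0.92) and HYOU1 (0.70), as was 1 of 14 cholesterol genes, LSS (0.58). Lower were 2 of 19 heat shock genes, DNAJB4 (-0.92) and HSPB1 (-0.36), 2 of 25 proteasome subunits, PSMA2 (-0.36) and PSMD2 (-0.30), and 1 of 23 respiratory chain genes, UQCRC2 (-0.29). UBTF, GNL2, CTSA, ALDOC, LSS and these heat shock, proteasome and respiratory chain genes did not pass without ARA-C replicate 3, nor did PHLDA1. Of 12 epithelial markers KRT18 was lower, by -0.33.

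The same compounds at EC50 were also compared on separate arrays at 24 h and on day 5 (3 arrays per compound at each time). The probe sets that were lower with ARA-C on day 3 were mostly lower again on day 5: 418 of 516 (81.0%) passed in the same direction, where 18.5% of all probe sets did, and none passed in the opposite one. At 24 h 132 of them (25.6%) passed in that direction, where 3.07% of all did, and 4 in the opposite one. Of the 1562 that were higher, 340 (21.8%) were higher again on day 5, where 4.02% of all probe sets were, and 218 at 24 h, where 2.43% were. In the opposite direction 34 of the 1562 passed on day 5 and 10 at 24 h. Of the 683 higher probe sets that passed under all 3 treatments of the data, 246 were higher on day 5.

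Of the 19 lower histone genes 17 were lower on day 5 and 5 at 24 h, and all 16 mitosis genes were lower on day 5 and 7 at 24 h. Over the whole lists, 20 of 51 histone genes and 25 of 30 mitosis genes were lower on day 5, and 5 and 8 at 24 h. Of the 8 higher DNA replication genes 3 were higher on day 5 and none at 24 h. Over the whole list of 36, 3 were higher and 9 lower on day 5, and none passed at 24 h. On day 5, 4.02% of all probe sets were higher and 18.5% lower. The test of the difference between day 3 and day 5 passed for 1085 probe sets (4.88%), and that between day 3 and 24 h for 257 (1.16%). For none of the 19 histone and the 16 mitosis genes did the difference between days 3 and 5 pass, while 5 of the 19 and 2 of the 16 were lower on day 3 than at 24 h by that test. Of the 8 DNA replication genes none differed between days 3 and 5 by it and 2 between day 3 and 24 h. The genes of these 3 groups were taken because they passed on day 3, which favours larger differences on day 3. For CER1, ARA-C minus doxorubicin was 3.94 at 24 h, 5.15 on day 3 and 2.22 on day 5. For NUPR1 it was -0.63, 3.36 and 2.44, and for WNT5A 3.25, 2.46 and 1.88.

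**Figure D4:**
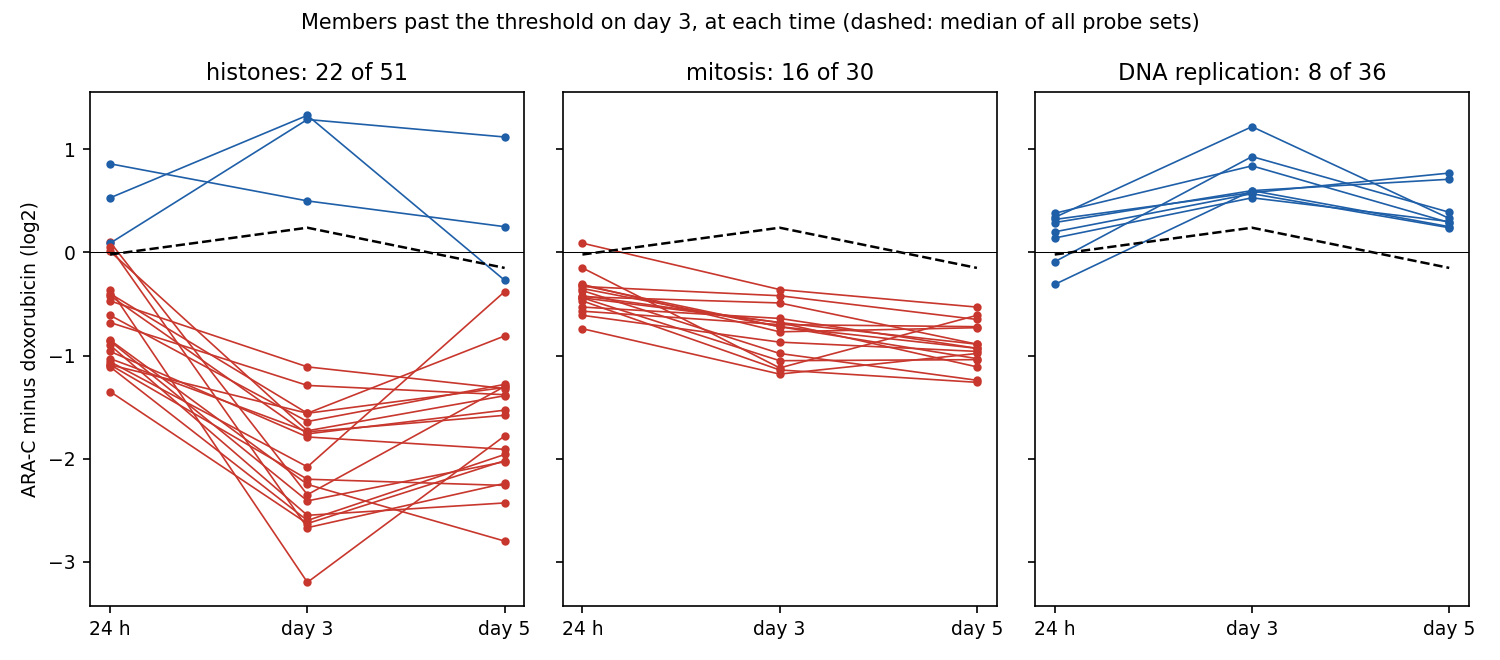
ARA-C minus doxorubicin (log2) at 24 h, day 3 and day 5 for the histone (22 of 51), mitosis (16 of 30) and DNA replication (8 of 36) genes that passed on day 3, 1 line for each gene, red where lower on day 3 and blue where higher. The dashed line is the median of all probe sets (-0.02, 0.24 and -0.15). Most histone lines lie lower on day 3 than at 24 h, and the mitosis lines lie below 0 except for 1 gene at 24 h.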

How the data were processed

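RNA of A673 cells was measured on Affymetrix high-throughput plate arrays. The authors deposited MAS5 signal intensity values on a linear scale, with the version not given in the sources used here and no detection calls used here. The number of arrays (3 against 3) limits the precision. Of 22930 probe sets, 715 controls were left out and 22215 tested, of which 19230 carried 1 gene symbol, 125 several and 2860 none. Symbols were updated through RefSeq (19217 matched). Values under 10 were raised to 10 before log2 was taken. A single limma 3.58.1 fit (R 4.3.3) of 21 group means with an intensity trend used 67 arrays, leaving out puromycin EC50 day 5 replicate 3, which held blood cell transcripts (residual df 46). The Benjamini-Hochberg adjustment covered all 22215, with a threshold of 0.05.

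Named genes were the 12 largest differences in each direction (1 symbol, no overlap between the arrays, higher group above the 60th percentile of mean signal), the 3 largest called members of each of 34 lists, 16 genes of drug action and fusion status, and the 5 largest of the 66 and of the 77 probe sets. Lists took 1 probe set per gene, that of highest mean signal. CCND3, E2F1, H1-2, H4C3, H2AX and other list members were named after their values were seen. The members and the lists were chosen with earlier results of these data known. Alternatives were quantile normalization, a common median, floors of 1 and 32, a cap of 16000, no dim probe sets, all 68 arrays, only the 6 arrays, a replicate block, no trend, array weights, vehicle arrays of plate rows A-F, and leaving out each array. Leaving out ARA-C replicate 3 with quantile normalization was added after seeing the data.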

Additional observations from a re-analysis of the deposited data

Results flagged for a closer look

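The difference between ARA-C and doxorubicin differed between days 3 and 5 in 14 named genes by that test, all with higher values on day 3. The median over all probe sets was also higher, at 0.24 on day 3 and -0.15 on day 5. As deposited 4.88% of all probe sets (1085) passed, against 520 without ARA-C replicate 3 and 31 after a shift to a common median. The part of this shared shift in the 14 genes was not tested. Day 3 minus day 5 was 2.93 for CER1, 1.81 for CTNND2, 2.26 for SLC68A1, 1.53 for NOL4 and 1.99 for ENO2 on the log2 scale. The HOX genes HOXB6 and HOXB7 gave 2.07 and 1.25, BAD 1.23, RAD9A 1.09, UBTF 1.64, GPNMB 1.73, HYOU1 0.74 and FLI1 0.89. For FLI1 the compounds differed by -0.07 on day 3 and by -0.96 on day 5 (adjusted p = 0.00011). KRT18 gave 0.43.

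By the test of day 3 against 24 h, 19 named genes differed, where 1.16% of all probe sets did. Apart from the 16 genes of drug action and fusion status, named genes were chosen for large differences on day 3. In both tests this choice favours larger differences on day 3 than at the other time. The difference was lower on day 3 for the histone genes H3C4 (-2.85), H4C8 (-2.72), H2AC11 (-2.44), H2BC9 (-1.49) and H2AC18 (-1.40). The same held for the mitosis genes AURKA (-0.97) and CDC20 (-0.67), for TOP2A (-0.90), IGFBP5 (-2.97), NCALD (-1.91), PTPRC (-2.98) and KRT18 (-0.44). It was higher on day 3 for NUPR1 (3.99), HOXB6 (2.28), HOXB7 (1.33), PCDH7 (1.73), ENO2 (1.46), HOOK1 (1.26) and PRIM1 (1.02).

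Among the 5 vehicle arrays 1 lay far from the others for 3 of 40 genes tested, with a gap of 0.82 of the group's range for CTNND2, 0.74 for H2BC5 and 0.91 for TOP2B. Chance flags about 1 in 20 such groups.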

How the results depend on the processing

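The numbers of higher and lower probe sets depended most on which arrays and scaling were used. Higher probe sets numbered 506 with all 68 arrays, 3603 with a floor of 32, 636 after a shift to a common median and 886 without ARA-C replicate 3 after quantile normalization, against 1562. Leaving out 1 array in turn gave 757 to 2907, the lowest without ARA-C replicate 3. Lower probe sets numbered 134 with all 68 arrays, 1463 with array weights, 814 with a floor of 32, 1023 with only the 6 arrays, 1210 after quantile normalization, 888 with a replicate block in the 6 arrays and 1978 after a shift to a common median, against 516, and 254 to 546 without 1 array. A replicate block over 67 arrays gave 1532 higher and 533 lower. Deviations of arrays of the same number from their group means correlated at -0.01, 0.06 and 0.07. ARA-C replicate 3 stood apart and enters every ARA-C deviation, so these values cannot decide whether arrays of the same number were paired. ARA-C against vehicle called 4975 probe sets, 2124 with all 68 arrays, 1633 with vehicle arrays of plate rows A-F, 2699 without ARA-C replicate 3 after quantile normalization, and 2257 to 6381 without 1 array. Doxorubicin against vehicle called 4473, with 2378 for all 68 arrays, 7787 with array weights, 3023 with vehicle arrays of plate rows A-F, and 3254 to 4579 without 1 array. The day 3 minus day 5 contrast called 1085, with 14 for all 68 arrays, 1913 with array weights, 344 after quantile normalization, 31 after a shift to a common median, 179 without ARA-C replicate 3 after quantile normalization, and 506 to 1327 without 1 array. That between day 3 and 24 h called 257, with 28 for all 68 arrays, 825 with array weights, 436 with a floor of 32, 461 after quantile normalization, and 139 to 438 without 1 array.

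Lower histone genes numbered 18 to 19 and lower mitosis genes 13 to 17 without 1 array, and 5 mitosis genes with all 68 arrays. Higher DNA replication genes numbered 1 with all 68 arrays, 14 with array weights, 14 with only the 6 arrays, 15 after quantile normalization, 2 after a shift to a common median, and 7 to 10 without 1 array. The EWS/FLI off score difference was -0.46 after quantile normalization and -0.38 to -0.30 without 1 array. The 3' to 5' ratio differed by -0.04 to 0.42 for ACTB and by 0.14 to 0.26 for GAPDH. Of 119 named probe sets 102 passed, 42 of them under every setting run, and no call reversed. The 24 genes with the largest differences passed under every setting run, except NUPR1 with a floor of 1 (adjusted p = 0.064). The cause of these changes was not tested. Values under the floor, 18.3% to 21.5% on 10 of the 11 arrays of day 3, have no order among them.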
